A study of Mus musculus with 30 samples.

Results

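The genes described here encode the proteins of the mitochondrial ribosome, and were taken as every row of the expression table whose symbol is Mrpl or Mrps followed by a number. This gave 76 of the 11137 genes. Of these members, 50 encode proteins of the large subunit and 25 proteins of the small subunit, while Mrps36 carries the family name although its product belongs to the 2-oxoglutarate dehydrogenase complex. For 47 members a homolog in bacterial ribosomes is known, and 29 are specific to mitochondria. Messenger RNA was measured by QuantSeq, which sequences the 3′ end of polyadenylated transcripts, in 30 libraries of luminal or basal epithelial cells sorted from mouse mammary glands (MGs).

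Every mouse carried K8rta, TETO CRE and the mTmG reporter, and received doxycycline at 1 mg/ml, from week 3 to week 8 of age per the labels, while the study's methods give a later start. Under doxycycline the Krt8 promoter drives Cre in luminal cells, where the reporter switches from tomato to GFP. The controls (K8imTmG) keep Rank, whereas K8iΔRank mice also carry RANK fl/fl and are meant to lose it in luminal cells, so that their basal cells are not the target. Virgin mice were compared with parous mice, whose MGs had gone through pregnancy and regression. Per the study's methods K8imTmG mice nursed before the pups were taken away, whereas K8iΔRank mice failed to lactate from the first day, so that parous MGs differ in nursing as well as in genotype. There were 3 virgin and 5 parous K8imTmG and 3 virgin and 4 parous K8iΔRank luminal libraries, and 3 virgin and 4 parous K8imTmG and 4 virgin and 4 parous K8iΔRank basal libraries, with both lineages from 13 of 17 mice.

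Mitochondria keep a small genome of their own, whose messenger RNAs all code for subunits of the oxidative phosphorylation complexes and are translated inside the organelle by a dedicated ribosome. The RNA of that ribosome is transcribed from the mitochondrial genome, whereas its proteins are encoded in the nucleus, made on cytosolic ribosomes and imported. In the MG, luminal cells include the progenitors of the milk-producing alveoli, and basal cells are contractile and surround them.

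Values are normalized counts, the deduplicated reads of a gene divided by the size factor of the library. Reads per library ranged from 340445 to 3130419, of which 988 to 14369 fell on the members. The libraries part by the lectin gene Clec2d, which stood above 30 in 14 of them (Clec2d-high) and below in 16 (Clec2d-low). In virgin luminal cells K8imTmG libraries were all low and K8iΔRank libraries all high, and in virgin basal cells the order was the opposite. Parous K8iΔRank luminal libraries were all low, parous K8imTmG basal libraries were all high, and the remaining parous groups were mixed, with 2 high and 3 low K8imTmG luminal and 2 high and 2 low K8iΔRank basal libraries. Clec2d-high libraries were shallower, with a median of 878946 reads against 2478110.0. Rank (Tnfrsf11a) was read at its 3′ end, and whether such reads can show the deletion is not given in the sources used here. Its mean was 14.1 ± 4.51 (SD, n = 3) in virgin K8imTmG and 18.1 ± 6.16 (SD, n = 3) in virgin K8iΔRank luminal libraries. In parous ones it was 39.5 ± 22.1 (SD, n = 5) and 33.7 ± 5.82 (SD, n = 4). The genotypes of these libraries therefore rest on the labels. By qPCR the study found less Rank in sorted luminal GFP+ cells of K8iΔRank mice.

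Averaged over all libraries, the highest members were Mrps6, at 193 normalized counts, and Mrps33, at 189.7, both of the small subunit, and Mrpl51 and Mrpl52, of the large subunit, at 154 and 152. The lowest were Mrps28, at 7.04, Mrps31, at 20.1, Mrpl9, at 22.96, and Mrpl46, at 23.4. QuantSeq gives about 1 tag per transcript whatever its length, and these are levels of such tags. Mrps28 had fewer than 3 reads in 12 libraries. Mrps6, Mrps15, Mrps24 and Mrps34 overlap Slc5a3, Oscp1, Urgcp and Nme3 on the same strand, and Mrpl23, Mrpl27, Mrpl48 and Mrps36 have annotated pseudogenes, so that reads could be shared between them.

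Together the members took 0.254% to 0.496% of a library's normalized counts, whereas the 77 cytosolic Rpl and Rps genes took 8.00% to 24.8%. The mean log2 level of the members lay between 5.51 and 5.99 in Clec2d-high and between 5.31 and 6.09 in Clec2d-low libraries, so that the sides overlapped. The cytosolic genes lay between 10.94 and 11.996 in Clec2d-high and between 10.02 and 10.74 in Clec2d-low libraries, without overlap.

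**Figure D1:**
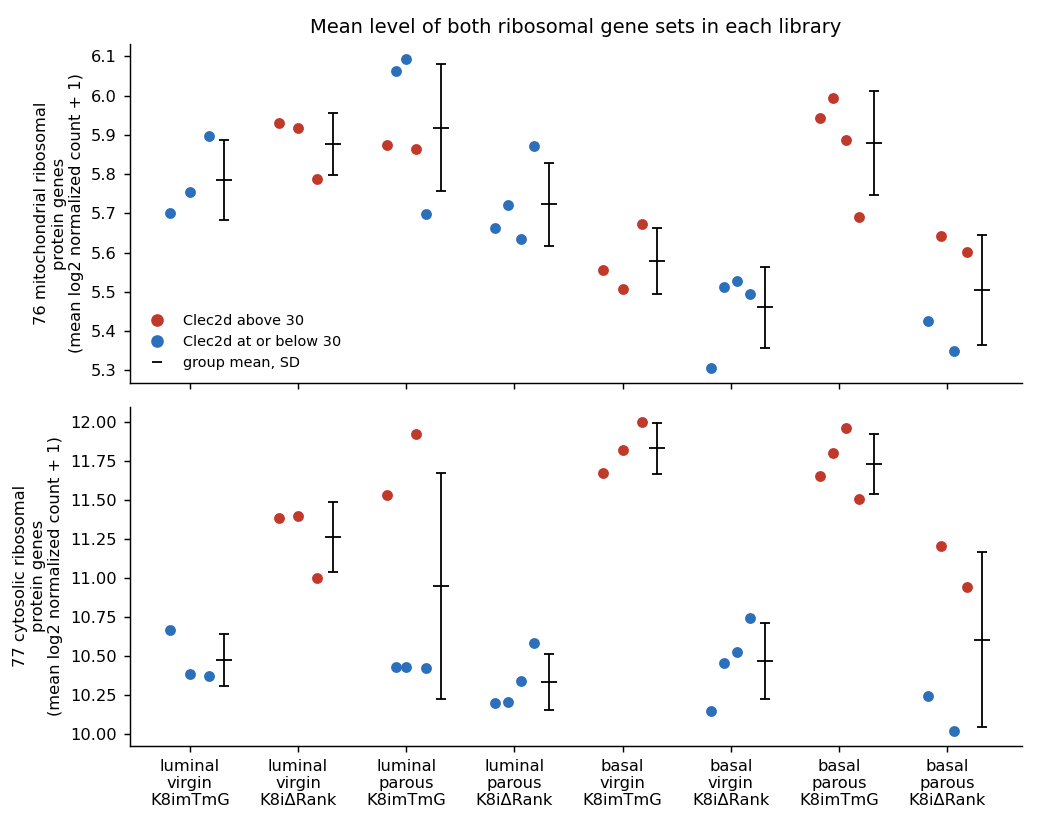
Mean log2(normalized count + 1) of the 76 members and of the 77 cytosolic ribosomal protein genes in each of 30 libraries by group, colored by Clec2d side, with group means and SD. The cytosolic genes are at or above 10.94 in every Clec2d-high and at or below 10.74 in every Clec2d-low library, whereas the members of the sides overlap, at 5.51 to 5.99 and 5.31 to 6.09.

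The first comparison asked how the members differ between luminal and basal cells, as the mean of the 4 luminal groups minus the mean of the 4 basal groups. The log2 difference was above 0 for 55 of 76 members. Of 76 members 30 were higher and 2, Mrps36 and Mrpl3, lower at an adjusted p under 0.05 (limma, Benjamini-Hochberg over all genes). Such differences were common, with 55.7% of 11133 genes called, 28.7% higher and 27.0% lower, against 39.5% and 2.63% of the members. The median log2 difference was 0.29 over the members, 0.04 over all genes and -0.38 over the cytosolic genes, of which 33 of 77 were lower and none higher. In the large subunit 22 of 50 were higher and 1 lower, and in the small subunit 8 of 25 higher and 0 lower. Of members with a bacterial homolog 18 of 47 were higher, and of mitochondria-specific members 12 of 29.

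**Figure D2:**
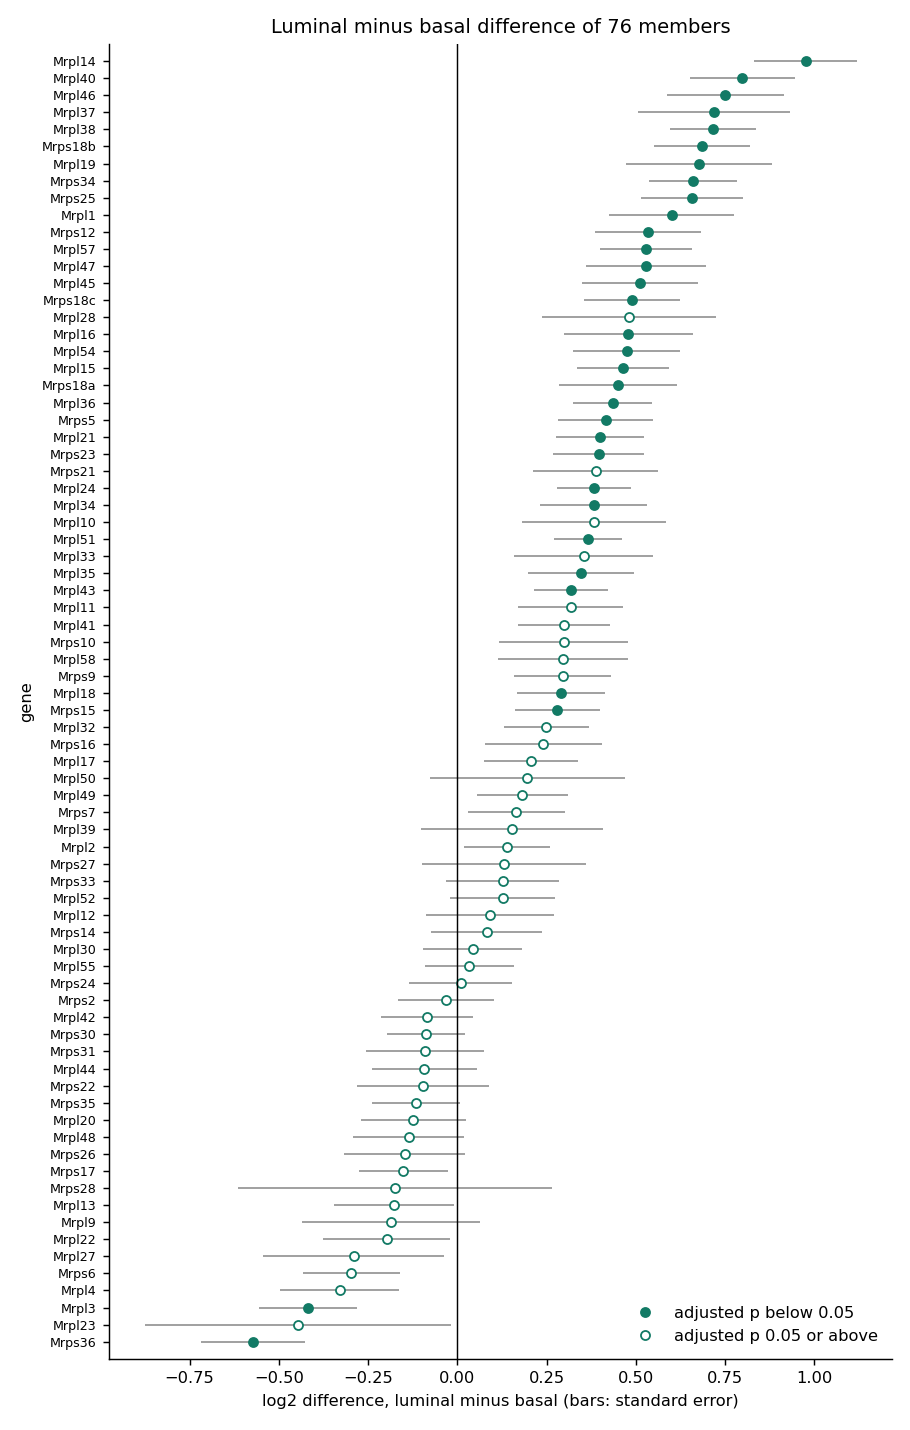
Log2 difference, luminal minus basal, of each of the 76 members with its standard error, filled where the limma adjusted p was under 0.05. The 30 filled points right of 0 reach 0.98 (Mrpl14), and the 2 left of it are Mrps36 and Mrpl3.

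Mrpl14 (ENSMUSG00000023939.9, chr17:45996373-46010480 in GRCm39), a bacterial-type protein of the large subunit that faces the small subunit, differed most. Its normalized count ran from 68.9 to 218 (median 115) in 15 luminal and from 34.7 to 102 (median 60.3) in 15 basal libraries. The lineages overlapped, but within each Clec2d side they did not, with luminal from 68.9 to 155 against basal from 34.7 to 49.6 on the low side and luminal from 115 to 218 against basal from 53.7 to 102 on the high side. The log2 difference was 0.98 (SE 0.14, limma adjusted p = 1.11e-06), higher in luminal cells of 13 of 13 mice, and with the Clec2d side as a term it was 1.22 (SE 0.12).

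Mrpl38, Mrpl40 and Mrpl46, large subunit proteins specific to mitochondria, followed. Mrpl38 ran from 34.6 to 70.3 (median 48.1) in luminal and from 18.3 to 51.8 (median 28.3) in basal libraries, a log2 difference of 0.72 (SE 0.12, limma adjusted p = 8.88e-06), and was higher in luminal cells of 13 of 13 mice. Mrpl40 ran from 28.9 to 78.96 (median 47.2) and from 13.96 to 48.9 (median 24.8), a difference of 0.80 (SE 0.15, limma adjusted p = 3.69e-05), in 13 of 13 mice. Mrpl46 ran from 19.2 to 45.9 (median 30.8) and from 10.5 to 24.8 (median 17.2), a difference of 0.75 (SE 0.16, limma adjusted p = 0.00027), in 12 of 13 mice. For each of them the ranges of the lineages overlapped while the medians lay well apart.

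In the small subunit Mrps34, specific to mitochondria, and Mrps18b differed most. Mrps34 ran from 65.3 to 128 (median 85.6) in luminal and from 30.2 to 87.6 (median 58.9) in basal libraries, a log2 difference of 0.66 (SE 0.12, limma adjusted p = 3.99e-05), in 12 of 13 mice. Mrps18b ran from 130.2 to 265 (median 175) and from 43.5 to 190.5 (median 104), a difference of 0.69 (SE 0.13, limma adjusted p = 7.39e-05), in 10 of 13 mice. Mammals have 3 homologs of bacterial S18, and the other ones, Mrps18c of the small and Mrps18a of the large subunit, were higher in luminal cells as well, by 0.49 (SE 0.13) and 0.45 (SE 0.16) on the log2 scale. So were Mrps12, homolog of a bacterial protein of the decoding site, by 0.53 (SE 0.15), and Mrps15, by 0.28 (SE 0.12). A term for the Clec2d side put Mrps18a at 0.39 (SE 0.18, limma adjusted p = 0.0779) and Mrps15 at 0.18 (SE 0.12, limma adjusted p = 0.248), and the mouse as a block put Mrps15 at 0.30 (limma adjusted p = 0.0662), so that these calls were lost.

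**Figure D3:**
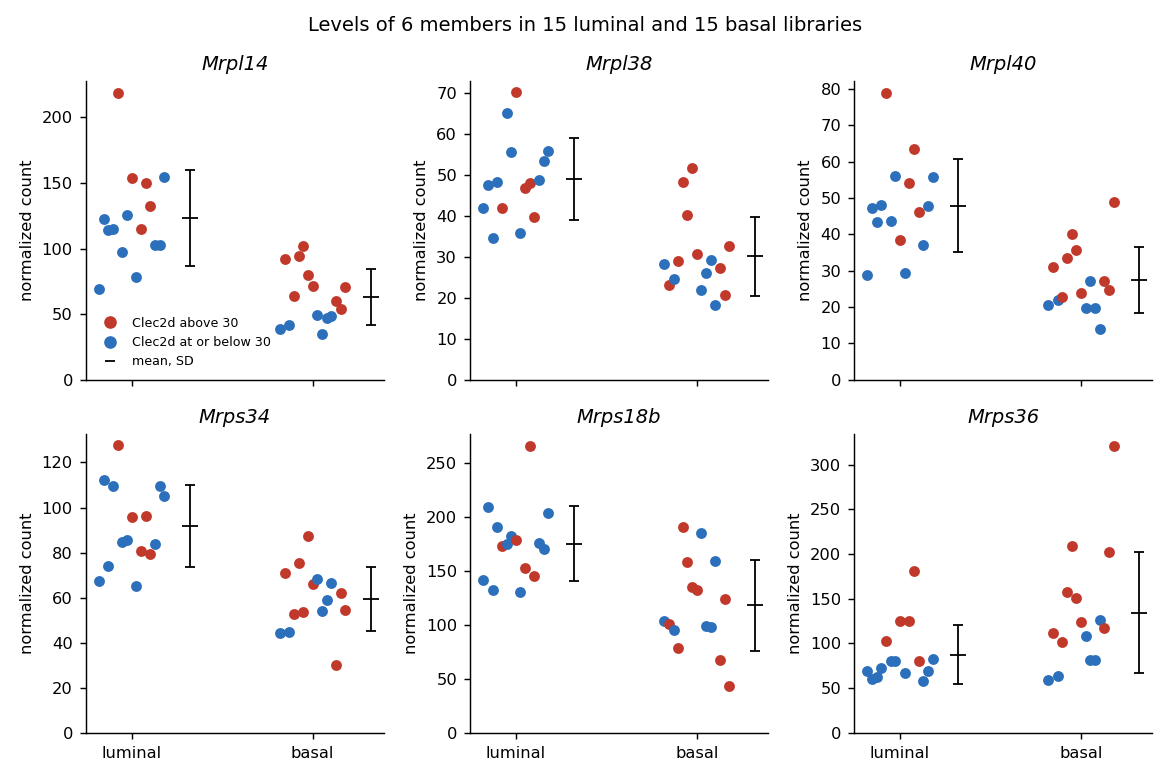
Normalized counts of 6 members in 15 luminal and 15 basal libraries, colored by Clec2d side, with mean and SD. Mrpl14, Mrpl38, Mrpl40, Mrps34 and Mrps18b have higher luminal medians, such as 115 against 60.3 for Mrpl14, whereas the basal median is higher for Mrps36, at 118 against 79.9.

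Both members that fell stand apart from this. Mrps36, the dehydrogenase subunit, ran from 58.3 to 181 (median 79.9) in luminal and from 59.6 to 321 (median 118) in basal libraries, a log2 difference of -0.57 (SE 0.15, limma adjusted p = 0.00134). It was also higher in Clec2d-high than in Clec2d-low libraries, with medians of 125 and 70.4, and 9 of the 14 Clec2d-high libraries were basal. With the Clec2d side alone as a term the call held, at -0.39 (SE 0.14, limma adjusted p = 0.0234). With the mouse as a block it was lost, at -0.45 (limma adjusted p = 0.066). With both the block and the side the difference was -0.23 (limma adjusted p = 0.172). Mrpl3, a bacterial-type protein of the large subunit, ran from 33.9 to 102 (median 56.1) and from 46.2 to 123 (median 74.9), a log2 difference of -0.42 (SE 0.14, limma adjusted p = 0.0106), and was lower in luminal cells of 13 of 13 mice. Without mouse 538 it was -0.33 (limma adjusted p = 0.0531).

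Several members with particular roles did not pass. Mrpl12, of the flexible stalk, had a mean of 123 ± 51.5 (SD, n = 15) in luminal and 108 ± 32.03 (SD, n = 15) in basal libraries, a log2 difference of 0.09 (SE 0.18), which turned to -0.17 (SE 0.17) with the Clec2d side as a term. Mrpl10, at the base of the stalk, differed by 0.38 (SE 0.20), Mrpl58, a hydrolase that rescues stalled ribosomes, by 0.29 (SE 0.18), and Mrps30, which sits in the large subunit despite its name, by -0.09 (SE 0.11). Of the 4 members with the highest levels Mrpl51 was called, at 0.37 (SE 0.10), while Mrps6, at -0.30 (SE 0.14), Mrps33, at 0.13 (SE 0.16), and Mrpl52, at 0.13 (SE 0.15), were not. Both of the latter were called with the Clec2d side as a term, Mrps33 at 0.37 (SE 0.14, limma adjusted p = 0.0303) and Mrpl52 at 0.40 (SE 0.12, limma adjusted p = 0.0047). Of the 4 lowest Mrpl46 was called, and Mrps31, at -0.09 (SE 0.16), and Mrpl9, at -0.19 (SE 0.25) and 0.18 with the mouse as a block, were not, nor was Mrps28. No member had luminal and basal libraries without overlap, as 9.57% of the genes in the table did.

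Within mice, the mean log2 level of the members was higher in the luminal library in 12 of 13, with a median difference of 0.23 and a range of -0.02 to 0.42. In the 7 mice with a Clec2d-low luminal and a Clec2d-high basal library it lay between 0.01 and 0.39. In the 3 mice with the sides reversed, all virgin K8iΔRank, it lay between 0.29 and 0.42. The 3 mice with both libraries on the same side gave -0.02 to 0.29. The cytosolic genes took the sign of the side, with -1.44 to -0.36 in the first and 0.26 to 0.93 in the second set of mice. As a share of normalized counts the members took 0.344% to 0.496% in luminal and 0.292% to 0.314% in basal Clec2d-low libraries, without overlap, and 0.340% to 0.407% and 0.254% to 0.353% in Clec2d-high libraries, which overlap.

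**Figure D4:**
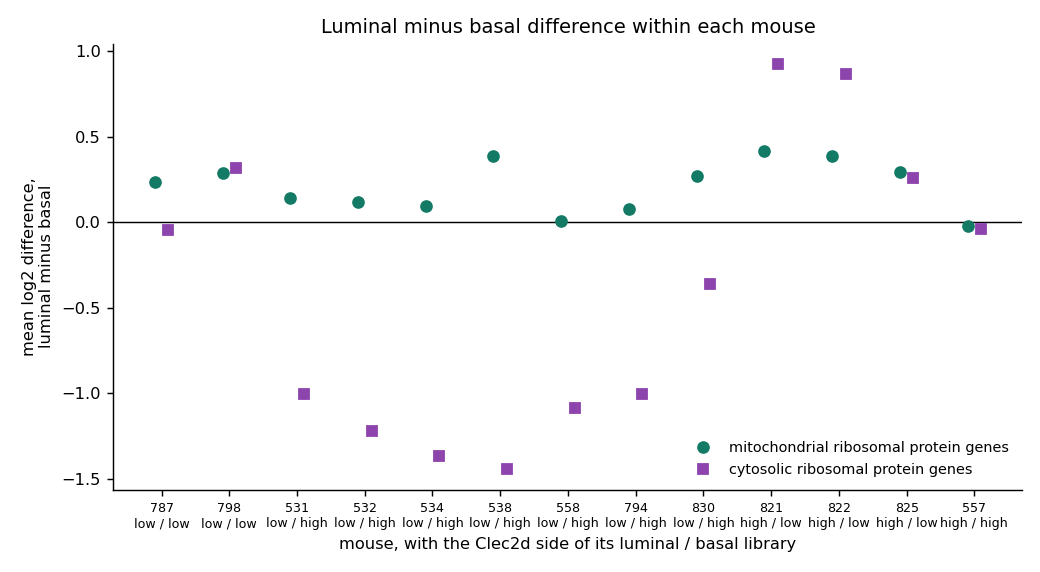
Luminal minus basal difference in mean log2(normalized count + 1) within each of 13 mice, for the members (circles) and the cytosolic ribosomal protein genes (squares), with the Clec2d sides under each mouse. The circles lie above 0 in 12 mice, and the squares range from -1.44 to 0.93 and follow the order of the sides.

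With the Clec2d side as a term 25 members were higher and 3 lower, where 51.8% of all genes were called, 26.4% higher and 25.5% lower, and the median of the members was 0.25. Lower were Mrps36, Mrpl3 and Mrpl4, the last at -0.43 (SE 0.18, limma adjusted p = 0.0482) and not called without that term. The cytosolic genes then gave 1 higher and 4 lower of 77, with a median of -0.11. The labelled lineages carried their markers, with 12 of 12 luminal markers higher and 10 of 10 basal markers lower in luminal libraries. Basal libraries also held more of most markers of other cells. Summed levels in luminal and basal libraries were 98.4 to 957 and 550.2 to 1003 for 6 stromal, 3.36 to 37.8 and 43.8 to 683 for 4 endothelial, and 9.59 to 38.5 and 39.1 to 141 for the 3 immune markers in the table (Lyz2, Cd74 and C1qa, of 7 listed). The adipocyte gene Fabp4, the 1 of 3 listed that the table holds, ran from 4.399 to 50.5 and from 111 to 2587. Both globin genes summed to at most 89.6 and 157, with medians of 12.8 and 15.9. Luminal minus basal, Hbb-bs was at -2.43 (limma adjusted p = 0.000358) and Hba-a1 at 1.12 (limma adjusted p = 0.0561). The part of these other cells in the result was not tested. In bulk libraries fewer cells of a type and less RNA per cell cannot be told apart.

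The wider machinery of mitochondrial translation was read from the same fit, in which 28.7% of all genes were higher and 27.0% lower. Of 5 proteins of the mitochondrial ribosome under other symbols 3 were higher in luminal cells, the small subunit proteins Aurkaip1, by 0.46 (SE 0.09) on the log2 scale, Chchd1, by 0.49 (SE 0.14), and Dap3, by 0.50 (SE 0.16). Of 14 translation factors 2 were higher, the initiation factor Mtif2, by 0.68 (SE 0.22), and the elongation factor paralog Gfm2, which acts in ribosome recycling, by 0.48 (SE 0.20). Of 16 genes for charging mitochondrial tRNAs 7 were higher, led by the leucyl- and arginyl-tRNA synthetases Lars2, by 1.09 (SE 0.17), and Rars2, by 1.11 (SE 0.18). Of 23 assembly and rRNA modification factors 4 were higher and 1 lower, among them the helicase Ddx28, higher by 1.37 (SE 0.19), and the GTPase Gtpbp10, at -0.41 (SE 0.16). None of 9 genes for copying and transcribing mitochondrial DNA was called by limma, and 0 had an unadjusted p under 0.05. Of 10 nuclear regulators Gabpb1, a subunit of the ETS factor GABP, was higher, by 0.57 (SE 0.17), and Myc lower, at -2.34 (SE 0.31). Adding the Clec2d side gave 2 of 5, 1 of 14, 7 of 16 and 4 of 23 higher in the first 4 lists.

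Transcripts of the mitochondrial genome went the other way. Of the 14 such genes, 13 were lower in luminal cells and none higher, with a median log2 difference of -0.84, for instance mt-Nd2, at -0.82 (SE 0.12), and mt-Atp8, at -1.12 (SE 0.18). With the Clec2d side as a term 11 were lower and the median was -0.47. These are levels of RNA as read by QuantSeq and not of protein or translation.

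Promoter sequence was read from RefSeq (GRCm38.p6) as windows of 300 bases, 250 before and 50 after each start, found as 73 windows for 67 of 76 members. Searched on both strands were the letters GCGCA, any base and GCGC for NRF1 (nuclear respiratory factor 1), CCGGAAG for ETS factors such as GABP, AAGATGGC for YY1, and CACGTG, the E-box of Myc and others. The NRF1 letters stood in 17.8% of the members' windows, 7.5% of those of the cytosolic genes, 10.1% of those of all genes in the table and 4.6% of all 32851 windows. The same shares were 34.2%, 37.3%, 17.6% and 8.9% for the ETS letters, 15.1%, 10.4%, 4.5% and 2.7% for YY1, and 9.6%, 11.9%, 10.3% and 7.2% for the E-box. Members higher in luminal cells held the NRF1 letters in 3 of 25 and the ETS letters in 11 of 25 windows, and the other members in 10 and 14 of 48. A match describes letters and is not a bound site.

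The stretches below show these letters in capitals, 5′ to 3′ on the strand of the gene, for some members that led the lineage difference or the other comparisons and held a match. Other leading members held none. Mrpl40, Mrpl46 and Mrps14 had a window without any of these letters, and Mrpl38 and Mrps34 had no window.
Mrpl14, NRF1 letters, chr17:45686343-45686372, plus strand: aacccctggcGCGCAGGCGCagcgtgcggg
Mrpl44, NRF1 letters, chr1:79775973-79776002, plus strand: agaagcacttGCGCACGCGCagtacactag
Mrps21, NRF1 letters, chr3:95871586-95871615, minus strand: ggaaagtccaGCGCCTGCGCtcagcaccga
Mrpl12, NRF1 letters, chr11:120484546-120484575, plus strand: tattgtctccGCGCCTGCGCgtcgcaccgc
Mrps18b, ETS letters, chr17:35916391-35916420, minus strand: tgtcccgagcatgcgcagtcgctCTTCCGG
Mrpl3, ETS letters, chr9:105053238-105053267, plus strand: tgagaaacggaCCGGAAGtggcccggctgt
Mrpl27, ETS letters, chr11:94653725-94653754, plus strand: gtccgcaagacCCGGAAGtagatctatccc
Mrps27, YY1 letters, chr13:99344789-99344818, plus strand: tggtgcgctccAAGATGGCggctcccatgg
Mrpl37, YY1 letters, chr4:107066822-107066851, minus strand: ctgcacgggcaAAGATGGCggcgtccaggt
In Mrps21, Mrpl12 and Mrps18b the capitals are the reverse complement of the letters searched. The NRF1 letters begin 4 bases after the start of Mrpl14 and end 72 bases before that of Mrpl12. Of the members shown with the NRF1 letters Mrpl14 was higher in luminal cells, while Mrpl44, at -0.09 (SE 0.15), was not called. Mrps21 was not called at 0.39 (SE 0.17) but was at 0.72 (SE 0.13, limma adjusted p = 4.42e-05) with the Clec2d side as a term.

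Within luminal cells, parity in K8iΔRank mice gave the most calls, with 3 members higher and 10 lower in parous than in virgin libraries, of 75 tested. Over 10249 genes 16.0% were called, 8.25% higher and 7.78% lower, against 4% and 13.3% of the members. It was also the luminal comparison with the most calls over all genes. The median log2 difference was -0.08 over the members, 0.03 over all genes and -0.997 over the cytosolic genes, of which 45 of 77 were lower. The groups did not overlap for 23 members, as for 29.7% of all genes. The virgin libraries here were all Clec2d-high and the parous ones all Clec2d-low, so that parity and the split cannot be told apart within them. With the Clec2d side as a term in a fit over all luminal libraries, limma called 0 members and the median was -0.23. Of the luminal groups only parous K8imTmG held both sides, with 2 high and 3 low libraries. The term for the side was thus estimated from these control libraries alone. Without that term the same fit called 4, and the filter at a mean of 50 left 7. Other genes moved with the comparison. All 14 genes of the mitochondrial genome were lower, summing to 49305 to 72511 in virgin and 19674 to 28092 in parous libraries. The 6 stromal markers summed to 713 to 852 and 173 to 416, without overlap, the 10 basal markers to 104 to 331 and 65.3 to 105, and the 12 luminal markers to 11077 to 16632 and 7947 to 12857. Their part in the result was not tested.

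Mrps21 (ENSMUSG00000054312.8, chr3:95766069-95778879), homolog of bacterial S21, had 286, 304 and 196 normalized counts in the virgin and 85.2, 74.7, 106 and 114 in the parous K8iΔRank libraries, a log2 difference of -1.45 (SE 0.23, limma adjusted p = 0.00392). Mrps14 (ENSMUSG00000058267.15, chr1:160022785-160030541), of the small subunit head, had 154, 154 and 164 and 63.2, 73.2, 80.3 and 70.03, a difference of -1.13 (SE 0.18, limma adjusted p = 0.00392). For both, every parous library lay below every virgin one. Mrpl44, of the large subunit, fell from 59.3, 78.8 and 63.4 to 24.7, 27.5, 31.8 and 27.8, a log2 difference of -1.23 (SE 0.22), and Mrpl20 (ENSMUSG00000029066.14, chr4:155887335-155894435), a bacterial-type protein of the large subunit, from 90.9, 96.1 and 111 to 47.2, 35.4, 50.7 and 48.7, one of -1.12 (SE 0.21). These fell without overlap as well. Mrpl27, homolog of bacterial L27 close to the peptidyl transferase centre, had the difference furthest below 0, -1.62 (SE 0.44, limma adjusted p = 0.0321), from 64.4, 24.997 and 47.6 to 22.8, 12.8, 16.7 and 5.96. Mrpl22, Mrpl33, Mrpl39, Mrps33 and Mrps36 fell with log2 differences of -0.94, -0.92, -1.31, -1.09 and -0.88.

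The members that rose were Mrps27, Mrpl37 and Mrpl12. Mrps27, a pentatricopeptide repeat protein of the small subunit, had 10.1, 15.4 and 5.28 normalized counts in virgin and 35.01, 36.8, 26.8 and 48.2 in parous libraries, a log2 difference of 1.82 (SE 0.36, limma adjusted p = 0.0099). Mrpl37 rose from 40.4, 24.997 and 31.7 to 57.5, 53.1, 57.97 and 76.5, by 0.91 (SE 0.24, limma adjusted p = 0.0271), and Mrpl12 from 58.04, 113 and 63.4 to 142, 139, 119 and 180.3, by 0.93 (SE 0.26, limma adjusted p = 0.0333). All 3 rose without overlap. With the Clec2d side as a term the differences were 0.26 for Mrps27, 0.00 for Mrpl37 and, with the sign turned, -0.25 for Mrpl12 and 0.03 for Mrpl27. Those of Mrps21, Mrps14, Mrpl44 and Mrpl20 were then -0.39, -0.09, -0.19 and -0.56. The calls of Mrps21, Mrps14, Mrpl44, Mrpl20 and Mrps27 held whichever mouse was left out. Those of others were lost, with the limma adjusted p in brackets, for Mrpl37 without mouse 787 (0.0551), 822 (0.0616), 825 (0.0541) or 830 (0.0835), for Mrpl12 without mouse 787 (0.0652), 794 (0.066), 821 (0.119), 825 (0.0889) or 830 (0.0923), and for Mrpl27 without mouse 794 (0.0651), 821 (0.127), 825 (0.0831) or 830 (0.0664). Without mouse 787, 794, 821 or 830 the number of members called was 8, 7, 7 and 6 in place of 13.

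In luminal K8imTmG cells parity gave 0 calls among 76 members with limma, where 2.20% of 10279 genes were called. Of the members 5 had an unadjusted p under 0.05, DESeq2 called 1 and edgeR 0, and the median log2 difference was 0.08. In Clec2d-low libraries alone limma again called 0 members, with 6 at an unadjusted p under 0.05 and 12.8% of genes called. The largest difference was that of Mrps28, at 0.641, 2.10 and 0 in virgin and 15.1, 10.4, 1.76, 22.4 and 6.49 in parous libraries. These values rest on few reads, and Mrps28 passed the filter only through parous libraries. The lowest difference was that of Mrpl28, -0.88 (SE 0.65), with 48.1, 50.9 and 100.1 in virgin libraries, 16.8 and 9.59 in the parous Clec2d-high and 73.98, 79.4 and 42.4 in the parous Clec2d-low libraries. With array weights limma called 16 members. With the low libraries alone the difference of Mrpl28 was 0.01.

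Whether parity differed between the genotypes was tested as an interaction over the 15 luminal libraries. It gave 8 members with a lower parity difference in K8iΔRank than in K8imTmG cells and 0 with a higher one, where 12.9% of 10262 genes were called, 5.75% lower and 7.17% higher. Of the 77 cytosolic genes 24 were lower and 0 higher. Mrps21 had an interaction of -1.88 (SE 0.42, limma adjusted p = 0.0162) on the log2 scale, Mrpl44 of -1.76 (SE 0.41), Mrps14 of -1.57 (SE 0.38) and Mrpl20 of -1.29 (SE 0.32). The highest was that of Mrps27, 1.93 (SE 0.70, limma adjusted p = 0.0722), and the lowest that of Mrps28, which rests on few reads. In K8imTmG cells Mrps21 stood at 134, 112 and 97.9 in virgin and, in parous mice, at 249 and 230.1 in the Clec2d-high and 128, 115 and 101 in the Clec2d-low libraries. The call was lost for Mrps14 without mouse 538 (0.0548) and for Mrpl20 without mouse 538 (0.06) or 794 (0.0525), with the limma adjusted p in brackets. Without mouse 538, 794, 821 or 830 the number of members called was 2, 3, 4 and 5. With array weights it was 18. When the Clec2d side was a term, limma called 0 members and the interaction of Mrps27 turned to -0.25. The median was then -0.37 in place of -0.15. That term was again estimated from the parous K8imTmG libraries alone.

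In luminal cells Rank deletion gave 0 member calls with limma as run here, and 12 in virgin and 1 in parous mice with array weights, or 2 in virgin mice with the filter at a mean of 50. In virgin mice 16 of 75 members had an unadjusted p under 0.05, DESeq2 called 3 and edgeR 0, the median log2 difference was 0.09, and 0.984% of 10066 genes were called by limma. Of the 77 cytosolic genes 2 were called higher and 0 lower, and 87% were above 0. The genotypes did not overlap for 19 members, as for 28.3% of all genes, and cannot be told apart from the Clec2d sides. Sums over the genes of the mitochondrial genome were 30454 to 31388 in K8imTmG and 49305 to 72511 in K8iΔRank libraries, without overlap. The 10 basal markers, at 78.8 to 97.9 and 104 to 331, parted too. So did proteins of the mitochondrial ribosome under other symbols, at 461 to 487 and 524 to 631. Translation factors, at 472 to 570 and 638 to 794, and assembly factors, at 684 to 765 and 840 to 999.9, did as well. Sums of genes for charging tRNAs, at 442 to 550 and 395 to 452, and of stromal and luminal markers overlapped. The part of all these genes in the result was not tested. Mrpl39 differed most upwards, 1.37 (SE 0.51, limma adjusted p = 0.159), at 27.6, 28.8 and 6.62 in K8imTmG and 55.5, 34.6 and 54.2 in K8iΔRank libraries, and Mrps27 most downwards, -1.67 (SE 0.49, limma adjusted p = 0.096), at 18.6, 35.1 and 50.8 and 10.1, 15.4 and 5.28. In parous mice 10 of 76 members had an unadjusted p under 0.05, DESeq2 called 4 and edgeR 0, the median was -0.14, and 0.0991% of 10090 genes were called by limma. Of the cytosolic genes 0 were called and 2.6% were above 0. Among the members Mrpl28 had the highest difference there, 0.47 (SE 0.58), which turned to -0.41 in Clec2d-low libraries alone. Mrps28 had the lowest, at 15.1, 10.4, 1.76, 22.4 and 6.49 in K8imTmG and 2.28, 0.491, 1.11 and 0.993 in K8iΔRank libraries. These values rest on few reads, and Mrps28 passed the filter only through K8imTmG libraries. Its highest values, 15.1 and 22.4, were those of the Clec2d-high libraries. Between 4 K8iΔRank and 3 K8imTmG Clec2d-low libraries the median was -0.19, with 9 of 75 members at an unadjusted p under 0.05, 0 called by limma and 0.416% of genes called.

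Among basal cells, which the deletion does not target, virgin K8iΔRank libraries had 2 lower and 0 higher of 76 members, where 8.99% of 10616 genes were called, 4.72% lower and 4.27% higher. Of the 77 cytosolic genes 46 were lower and 0 higher. Mrpl27 stood at 53.1, 78.5 and 43.5 in K8imTmG and 4.62, 24.8, 15.6 and 9.67 in K8iΔRank libraries, a log2 difference of -2.19 (SE 0.51, limma adjusted p = 0.0316). Mrpl52, specific to mitochondria, stood at 174, 174 and 147 and 58.9, 89.9, 102 and 101, a difference of -0.93 (SE 0.25, limma adjusted p = 0.0482). Neither overlapped between the genotypes, as 16 members and 28.2% of all genes did not, and genotype and Clec2d side cannot be told apart. The genes of the mitochondrial genome summed to 77924 to 110598 and 31735 to 42550.4, also without overlap, and their part in the result was not tested. Mrpl27 lost its call without mouse 531 (0.0717), 538 (0.101), 568 (0.0668) or 825 (0.0824), with the limma adjusted p in brackets, and Mrpl52 without any 1 of the 7 mice, at a limma adjusted p of 0.065 to 0.115. The number called was 0 without mouse 568 or 825 and 1 without mouse 538, 820, 821 or 822. The largest differences that were not called were those of Mrpl37, 1.59 (SE 0.61), and Mrpl23, -2.57 (SE 1.08). The median was -0.10, and 0.00 without mouse 568. Fitted over all basal libraries with the Clec2d side as a term, it was 0.16 and limma called 0 members, with Mrpl27 at -1.42 and Mrpl52 at -0.10. Of the basal groups only parous K8iΔRank held both sides, with 2 high and 2 low libraries. The term for the side was thus estimated from these parous libraries, and the fit cannot part genotype from side in virgin mice. Without that term the fit called 9, and array weights gave 5.

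In parous basal cells 1 member was lower in K8iΔRank mice by the test, and the mean over the members was read beside it. Their mean log2 level was 5.94, 5.99, 5.89 and 5.69 in K8imTmG and 5.43, 5.64, 5.35 and 5.60 in K8iΔRank libraries, without overlap. The median log2 difference was -0.35 against 0.06 over all genes, with 13 of 76 members above 0, and 23 had an unadjusted p under 0.05. Of the 77 cytosolic genes 7 were called, all lower, and 0% were above 0. Mrpl22, at the exit tunnel of the large subunit, was the 1 member called, where 0.906% of 10592 genes were called, 0.595% lower and 0.312% higher. It stood at 73.3, 72.2, 104 and 45.5 in K8imTmG and 16.3, 27.9, 21.6 and 25.9 in K8iΔRank libraries, a log2 difference of -1.61 (SE 0.28, limma adjusted p = 0.0436). The highest difference was that of Mrps27, 0.59 (SE 0.38). With array weights limma called 24 members. Marker sums also parted without overlap, at 613 to 862 and 925 to 1271 for the 12 luminal markers and 13579.9 to 15763 and 10952 to 11931 for the 10 basal markers. So did the genes of the mitochondrial genome, at 64279 to 113392 and 26566 to 56379. Proteins of the mitochondrial ribosome under other symbols, at 464 to 589 and 345 to 441, and translation factors, at 571 to 776 and 423 to 509, parted too. Assembly factors, at 972 to 1143 and 594 to 985, and genes for charging tRNAs, at 342 to 414 and 297 to 347, overlapped. The part of all these genes in the result was not tested. The K8imTmG libraries were all Clec2d-high. Against the 2 Clec2d-high K8iΔRank libraries alone the median was -0.20, with 17 members above 0, 11 at an unadjusted p under 0.05 and 0 called by limma, as 0% of genes were. The cytosolic genes there had a median of -0.63, with 53 of 77 at an unadjusted p under 0.05. As a share of normalized counts the members of the genotypes overlapped, at 0.305% to 0.353% and 0.292% to 0.318%. Mrpl22 lost its call without mouse 532 (0.127), 534 (0.129), 557 (0.107), 787 (0.111), 798 (0.139) or 830 (0.0557), with the limma adjusted p in brackets, and the number called was then 0, while it was 2 without mouse 558 and 12 without mouse 794.

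Parity in basal K8imTmG cells was compared among libraries that were all Clec2d-high. Here 62 of 76 members were above 0, parous minus virgin, with a median log2 difference of 0.28, against 0.00 over all genes and -0.10 over the cytosolic genes. The mean log2 level was 5.56, 5.51 and 5.67 in virgin and 5.94, 5.99, 5.89 and 5.69 in parous libraries, and the share of normalized counts 0.254%, 0.255% and 0.290% and 0.351%, 0.353%, 0.310% and 0.305%. Neither overlapped between the stages. No member was called by limma, as 0% of 10538 genes were, 11 had an unadjusted p under 0.05, and DESeq2 and edgeR called 0 and 0. These were shallow libraries, of 340445 to 1172427 and 450064 to 1365008 reads. The largest difference was that of Mrpl19, 1.82 (SE 0.56, limma adjusted p = 0.382), at 24.4, 4.13 and 38.04 and 48.1, 72.2, 75.6 and 48.9, and the lowest that of Mrpl9, -0.85 (SE 0.56). Leaving out each mouse moved the median between 0.21 and 0.34. The 4 endothelial markers summed to 136 to 315 in virgin and 43.8 to 111 in parous libraries, without overlap, and the 12 luminal markers to 728 to 1876 and 613 to 862, with 0 of 10 tested above 0 and 7 at an unadjusted p under 0.05. Their part in the result was not tested.

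In basal K8iΔRank cells parity gave 0 of 75 members with limma, as 0% of 10525 genes, with 4 at an unadjusted p under 0.05, 0 called by DESeq2 and 0 by edgeR, and a median of -0.01. Mrpl23, at 1.82 (SE 1.05), and Mrps27, at -0.60 (SE 0.32), were furthest from 0, and that of Mrpl23 turned to -0.41 with array weights. The interaction of genotype and stage in basal cells had a median of -0.17 over the members and 0.03 over all genes. There limma, DESeq2 and edgeR called 0, 0 and 0 members, limma called 0% of 10607 genes, and 6 members had an unadjusted p under 0.05. Mrpl23, at 1.11 (SE 1.27), and Mrpl19, at -1.76 (SE 0.68), were the ends of the range, and Mrpl23 turned to -1.02 with array weights and -0.13 with the Clec2d side.

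Because the split crosses so many groups, the members were also read on either side of it within both mixed groups. The median log2 difference, Clec2d-high minus Clec2d-low, was -0.11 in parous K8imTmG luminal and 0.31 in parous K8iΔRank basal libraries, against 1.24 and 0.86 for the cytosolic genes. Single members nevertheless moved far, from -2.22 to 1.65 and from -1.11 to 2.48. The sign was the same in both groups for 57 of 76 members and 7823 of 11137 genes, and across the members the differences had a Pearson r of 0.73 (Spearman 0.70), against 0.53 across all genes. Genes are not independent replicates, and each group holds only 2 high libraries, so this is a description.

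**Figure D5:**
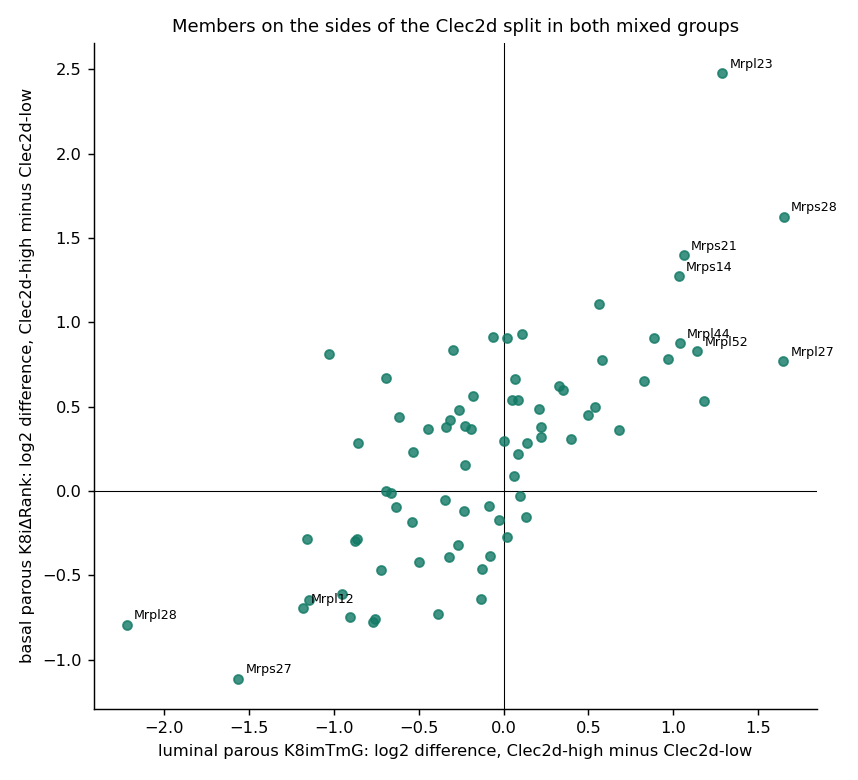
Log2 difference, Clec2d-high minus Clec2d-low, of each of the 76 members (points) in parous K8imTmG luminal (x axis) and parous K8iΔRank basal cells (y axis). The sign agrees for 57 members, with Mrpl23 (mean 1.88) at one end and Mrpl28 (mean -1.51) at the other.

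Highest on the Clec2d-high side, as the mean over both groups, were Mrpl23, at a log2 difference of 1.88, Mrps28, at 1.64, Mrps21, at 1.23, Mrpl27, at 1.21, and Mrps14, at 1.15. Mrpl23, at the exit tunnel, had 56.6 and 33.1 normalized counts in Clec2d-high and 6.86 and 7.04 in Clec2d-low parous K8iΔRank basal libraries, and 42.001 and 35.2 and 14.8, 13.2 and 17.7 in parous K8imTmG luminal libraries. Lowest on that side were Mrpl28, at -1.51, Mrps27, at -1.34, and Mrpl12, at -0.94. Mrps27 had 12.8 and 18.6 and 35.6 and 33.5 in the basal and 11.8 and 19.2 and 60.8, 51.2 and 32.02 in the luminal group. Over all 30 libraries only Mrps14 and Mrpl20 had sides without overlap, as 2.20% of all genes did. Mrps14 was at least 90.9 on the high and at most 90.01 on the low side, and Mrpl20 at least 79.00 and at most 78.1.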

How the data were processed

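Libraries were made with QuantSeq 3′ mRNA-Seq (FWD) with UMIs, from RNA whose integrity varied widely between samples per the labels. The deposited values are counts as a signal scaled by library. Per the labels and the study's methods the authors trimmed reads, aligned them to GRCm39 with Bowtie2 and then removed duplicates with UMI-tools. The reads left went through the nextpresso pipeline and were counted on Gencode genes. Counts were divided by DESeq2 size factors, and genes above 10 in at least 25% of samples were kept. Whether the counting used strand is not given in the sources used here. Dividing each library by its smallest step gave whole reads for 100% of values (tolerance 0.001), and the total reads above come from this.

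Tests were run with limma 3.58.1 (R 4.3.3) on log2(normalized count + 1) with an intensity trend, after dropping genes that did not exceed 10 in 25% or more of the libraries of a comparison, and p-values were adjusted by Benjamini-Hochberg over all genes left. Log2 differences are on this scale and understate changes of low genes. Alternatives were pseudocounts of 0.5 and 4, no filter, a filter at a mean of 50, array weights, quantile normalization, 2 count tests on recovered reads (edgeR 4.0.16 and DESeq2 1.42.0), 1 fit per lineage, the Clec2d side (cut at 30) as a term or 1 side alone, each mouse left out, and the mouse as a block. The term for the side, where no mouse block was used, was estimated only from groups that hold both sides. These were parous K8imTmG among luminal and parous K8iΔRank among basal libraries. The mouse numbers come from the labels, and p-values measure the spread between these libraries. Scripts were tested on simulated data. The groups were those of the labels. The members, gene lists and tests were chosen with earlier results of these data known. Members named were, per comparison and direction, up to 4 called ones (6 for lineage) with the lowest adjusted p and the one with the largest difference, the 4 highest and 4 lowest by mean level, those whose Clec2d sides did not overlap, and 10 with special roles. Others were named after their values were seen. Gene positions are from GENCODE on GRCm39 and promoter windows from RefSeq on GRCm38.p6, and no coordinates were converted between them.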

Additional observations from a re-analysis of the deposited data

Results flagged for a closer look

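In 6 of 135 groups of 4 or more libraries checked, 1 library stood far from the others by Dixon's test, where chance alone marks about 1 in 20. The mean log2 level of the members was 5.307 in the virgin K8iΔRank basal library of mouse 820, with the next at 5.49. Among parous K8iΔRank luminal libraries Mrpl14 was 68.87 in mouse 787 (next 114) and Mrpl22 was 19.37 in mouse 830 (next 27.3). Among parous K8imTmG basal libraries Mrpl23 was 77.57 in mouse 534 (next 44.4) and Mrps27 was 23.02 in mouse 532 (next 13.7). Mrps18b was 130.2 in the parous K8imTmG luminal library of mouse 558 (next 173).

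The parity difference in luminal cells differed between the genotypes, by the limma interaction, for 8 members, or 10.5%, and for 12.9% of 10262 genes. The 8 members were all lower, as 5.75% of genes were, while 7.17% of genes were higher. The log2 interactions were -1.88 for Mrps21, -1.76 for Mrpl44, -1.57 for Mrps14, -1.29 for Mrpl20, -2.88 for Mrpl27, -2.15 for Mrpl39 and -1.23 for Mrps36. Mrps28, at -4.82, is no measured fold, since its low counts make the value depend on the pseudocount. With the Clec2d side as a term none of these was called.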

How the results depend on the processing

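For the lineage the number of members called stayed within 1.5 times the reported one under every alternative but the filter at a mean of 50, which left fewer members to test and called 21. With the mouse as a block, the pairing that 13 mice allow, 24 were called (median log2 difference 0.26), and 26 with the Clec2d side in addition. Within-group deviations of both libraries of a mouse had correlations of -0.31 to 0.43. No other comparison holds both libraries of a mouse, so none could be blocked. Leaving out each mouse gave 27 to 36 calls and medians of 0.23 to 0.30.

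The other comparisons were less stable in their counts, and the cause was not tested. With array weights the number called was 12 (Rank deletion, virgin luminal), 1 (parous luminal), 5 (virgin basal), 24 (parous basal), 16 (parity, K8imTmG luminal) and 18 (luminal interaction), with medians of 0.03 (virgin basal), -0.34 (luminal interaction) and -0.40 (basal interaction). With the filter at a mean of 50 it was 2, 1 and 3 for Rank deletion in virgin luminal, virgin basal and parous basal cells, 7 for parity in K8iΔRank luminal cells and 5 for the luminal interaction, and with no filter 0 in parous basal cells. DESeq2 called 3, 4 and 7 for deletion in virgin luminal, parous luminal and parous basal cells and 1 for K8imTmG luminal parity, and edgeR 1 for virgin basal deletion; the luminal interaction had a median of -0.28 with DESeq2 and -0.28 with edgeR. With 1 fit per lineage the counts were 4 (parity, K8iΔRank luminal), 9 (virgin basal) and 2 (parous basal). With the Clec2d side as a term they were 0, 0, 0 and 0 for the same and the luminal interaction, and 1 for parity in K8imTmG luminal cells, with medians of -0.23, 0.16, -0.20, -0.37 and, for the basal interaction, -0.36. On 1 side alone parous basal deletion gave 0 and a median of -0.20.

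Directions turned for Mrpl28 between parous luminal genotypes (-0.41 with array weights, -0.41 on 1 side, -0.41 with the side as a term) and for parity in K8imTmG luminal cells (0.05, 0.01 and 0.01). With the side as a term they turned for Mrpl12 (-0.25) and Mrpl27 (0.03) in K8iΔRank luminal parity and Mrps27 (-0.25) in the luminal interaction. Mrpl23 turned in basal K8iΔRank parity (-0.41 with array weights) and in the basal interaction (-1.02 with array weights, -0.13 with the side).

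Leaving out each mouse gave 6 to 12 calls for K8iΔRank luminal parity, 0 to 2 and 0 to 12 for virgin and parous basal deletion, and 2 to 9 for the luminal interaction, with medians of -0.15 to 0.00 for virgin basal deletion and -0.29 to -0.12 for the basal interaction. The filter limits the low members, and Clec2d-high libraries, with 988 to 8518 member reads, limit the precision of the basal comparisons. Comparison on 1 Clec2d side was not possible for virgin genotypes or K8iΔRank luminal parity.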
